A study of Mus musculus with 2 samples.

Results

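Slc10a2, Fabp6, Slc51a, Slc51b, Nr1h4, Nr0b2 and Fgf15 are the genes through which the ileum takes up, carries, exports and senses bile acids. These 7 genes were listed by name for that role and not by a cut on any measured value. Earlier results of these data were known when they were listed. All 7 had a row in both count tables, among 16061 genes in the control table, 15786 in the Taf4IEC table and 16665 over both.

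Enteroids, organoids grown from ileal crypts of 4-month-old C57Bl6/129sv mice, were dissociated at day 8 of culture, sorted for live cells and captured for 10X Genomics 3′ single-cell RNA-seq, in which each captured transcript is counted once through its unique molecular identifier (UMI). The control group is 1 library, labelled WT and treated with ethanol (EtOH). The Taf4IEC group is 1 library, labelled KO and treated with 1 µM 4-hydroxytamoxifen (4-OHT) in EtOH for 3 days. The question asked was how loss of Taf4, part of the TFIID complex that assembles on core promoters, alters the cells of the enteroid. By the methods of the study, Taf4IEC enteroids are Taf4lox/lox::VilCreERT2, in which 4-OHT activates a Cre recombinase driven by the villin promoter of the intestinal epithelium. The same methods give the control as Taf4lox/lox enteroids that also received 4-OHT, which differs from the EtOH of the control's label. Neither the number of mice behind a library nor a replicate culture is stated. With 1 library per group no difference could be tested, and the intervals given here are 95% intervals (exact Poisson for levels, exact binomial for shares and ratios) that cover counting error only.

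Bile acids are made in the liver, released into the gut with a meal and largely recovered in the ileum. Slc10a2 (the apical sodium-dependent bile acid transporter, ASBT) takes them into the enterocyte, Fabp6 (the ileal bile acid binding protein) holds them in the cytosol, and Slc51a with Slc51b (OSTα and OSTβ, which form a single transporter) releases them towards the blood. Inside the cell they activate the nuclear receptor FXR, encoded by Nr1h4, which pairs with RXR and is known to induce Fabp6, Slc51a, Slc51b, Nr0b2 (the corepressor SHP) and Fgf15, the hormone that tells the liver to make less bile acid. The pathway belongs to mature enterocytes of the distal small intestine.

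Upstream sequence was found for 6 of the 7 genes in the RefSeq promoter table (build GRCm38.p6, the assembly of mm10), and Fgf15 had no entry. The 250 bases before the start site are printed for Fabp6 and Slc51b, which were lower in enterocyte-like cells of the library labelled Taf4IEC in all 12 alternatives run, and for Slc10a2, which was not. Capitals mark letters matching a searched motif, and all sequences read 5′ to 3′ on the strand of the gene.
Fabp6 (chr11:43601563-43601812, minus strand): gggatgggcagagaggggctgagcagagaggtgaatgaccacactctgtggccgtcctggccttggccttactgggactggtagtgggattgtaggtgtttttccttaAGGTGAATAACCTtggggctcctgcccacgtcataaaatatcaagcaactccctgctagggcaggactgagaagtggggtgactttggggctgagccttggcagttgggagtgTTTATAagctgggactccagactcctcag
Slc51b (chr9:65422774-65423023, minus strand): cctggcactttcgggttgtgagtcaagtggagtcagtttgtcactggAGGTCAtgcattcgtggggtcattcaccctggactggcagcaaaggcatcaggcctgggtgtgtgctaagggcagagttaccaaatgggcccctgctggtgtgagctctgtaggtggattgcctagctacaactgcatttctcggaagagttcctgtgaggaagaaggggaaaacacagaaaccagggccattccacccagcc
Slc10a2 (chr8:5105288-5105537, minus strand): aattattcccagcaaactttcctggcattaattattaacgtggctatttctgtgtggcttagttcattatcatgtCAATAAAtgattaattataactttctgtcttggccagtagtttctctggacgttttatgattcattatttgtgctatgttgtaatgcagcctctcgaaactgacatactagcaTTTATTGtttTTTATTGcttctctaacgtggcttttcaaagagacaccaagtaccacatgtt

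4 motifs were searched on both strands of each window. AGGTNANTNACCT, inverted copies of AGGTNA around 1 free base and the arrangement FXR with RXR is known to bind, was found in the Fabp6 window alone of the 6, as AGGTGAATAACCT from base -142 to base -130 before the start site. It was held by 6 of 32851 windows of the table, or 0.0183%, and was chosen as a motif after the Fabp6 sequence had been read. TATAAA, the TATA box of the core promoter that TFIID contacts, lay from base -29 to -24 of Fabp6 on the opposite strand and from -28 to -23 of Nr0b2, and 12.4% of all windows held it. AGGTCA, one copy of the letters that nuclear receptors bind in pairs, was present in the windows of Slc51a, Slc51b and Nr1h4 and in 14.0% of all windows. TTTATNG, a letter pattern that Cdx homeobox factors bind, had 3 matches in Slc10a2 (from -175, -62 and -52), none in the windows of the other members, and was held by 9.81% of all windows. TTTATNG and the reverse of TATAAA share letters, but no matches in these windows overlapped. A match describes the letters only and was not tested as a binding site.

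The control library held 2563 cells and 39947009 UMIs (median 16749 UMIs per cell), and the library labelled Taf4IEC 1811 cells and 24990128 UMIs (median 2254), with 17.3% and 49.1% of cells under 2000 UMIs and 2 cell barcodes in common. Taf4 transcripts did not separate the libraries as labelled: 278 UMIs in the control and 236 in the other gave 0.0696 and 0.0944 UMIs per 10000, a log2 ratio of 0.44 (0.18 to 0.70) towards the library labelled Taf4IEC. Which exons the deletion removes and whether 3′ reads would show it is not given in the sources used here, so every direction below is that of the library labelled Taf4IEC over the control. Cells were clustered without the 7 genes and named from markers. Enterocyte-like cells, checked by Apoa1, Fabp1, Alpi and 10 other markers, were 230 cells (8.97%) of the control and 371 cells (20.5%) of the library labelled Taf4IEC, and held 11.1% and 38.1% of the UMIs. Of 12 markers of immune, stromal, endothelial, glial and liver cells, 7 had a row. Cd3e and Cd79a of lymphocytes were at 0 in the control and Col1a1 of fibroblasts in the library labelled Taf4IEC. Their summed level was 0.0303 and 0.0536 UMIs per 10000 over all cells and 0.0113 and 0.0494 in enterocyte-like cells, where Lyz2 held 1 and 41 UMIs, and its part in the results was not tested.

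Over all cells, the uptake transporter and the α subunit of the export transporter had the larger differences among the 5 members with at least 50 UMIs. Slc10a2 had 378 UMIs in the control and 882 in the library labelled Taf4IEC. These gave 0.0946 (0.0853 to 0.105) and 0.353 (0.330 to 0.377) UMIs per 10000, 3.73-fold higher (log2 1.90, 1.72 to 2.08). Slc51a was at 0.0676 (0.0598 to 0.0762) and 0.165 (0.150 to 0.182), 2.45-fold higher (log2 1.29, 1.07 to 1.52). The intervals of the libraries were well apart for both genes. Its partner Slc51b differed less, at 0.264 (0.248 to 0.281) and 0.395 (0.370 to 0.420) UMIs per 10000, 1.49-fold higher (log2 0.58, 0.45 to 0.71). The receptor gene Nr1h4 was at 0.145 (0.133 to 0.157) and 0.187 (0.171 to 0.205), 1.29-fold higher (log2 0.37, 0.19 to 0.55). Fabp6 did not differ beyond counting error, with 573 and 374 UMIs, 0.143 (0.132 to 0.156) and 0.150 (0.135 to 0.166) per 10000 and a log2 ratio of 0.06 (-0.13 to 0.25).

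2 of these 5 members were thus at least 2-fold higher and 0 were at least 2-fold lower, against 8.31% higher and 4.38% lower among 11941 genes at that count. The median log2 ratio of the 5 was 0.58 and that of all genes 0.17. Leaving mitochondrial and ribosomal protein transcripts, Gm42418 and AY036118 out of the total moved every gene by -0.18, put the median of all genes at -0.01, and turned the background to 5.84% higher and 5.72% lower. Slc10a2 and Slc51a stayed above 2-fold on that total (1.72 and 1.11), and Fabp6 was at -0.12. With every cell thinned to 2000 UMIs, Fabp6 was at -0.74 (-1.44 to -0.09). A sum over all cells cannot tell more cells of a type from more transcripts per cell.

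The cells that held these transcripts were largely enterocyte-like in both libraries, apart from those of the receptor and of Fgf15. Enterocyte-like cells held 89.2% (86.3 to 91.6) of the Fabp6 UMIs of the control and 95.7% (93.1 to 97.5) of those of the library labelled Taf4IEC. The shares were 89.4% and 92.2% for Slc10a2, 95.6% and 98.1% for Slc51a, and 87.0% and 96.8% for Slc51b. Nr1h4 was spread more widely. Enterocyte-like cells held 33.3% (29.5 to 37.3) of its UMIs in the control and 67.9% (63.5 to 72.2) in the library labelled Taf4IEC, and stem-like cells 34.7% and 18.8%.

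**Figure D1:**
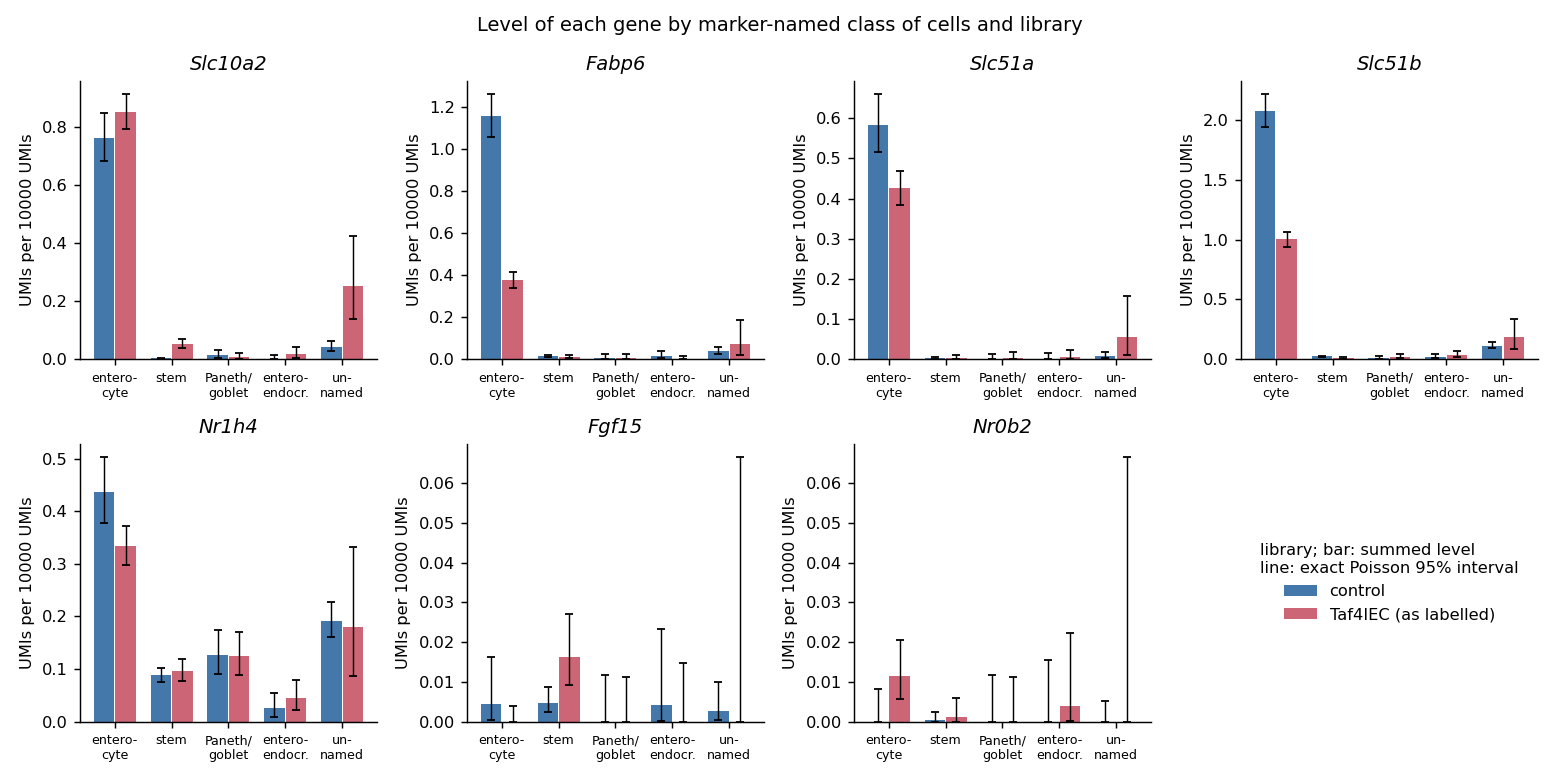
Summed level of each gene (UMIs per 10000 UMIs, linear axis from 0) in marker-named classes of cells, control in blue and the library labelled Taf4IEC in red, with exact Poisson 95% intervals. Fabp6 and Slc51b are lower in enterocyte-like cells of the library labelled Taf4IEC (0.376 against 1.16 and 1.00 against 2.08), Slc10a2 has overlapping intervals there, and Nr1h4 is seen in every class.

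Within enterocyte-like cells the order of the libraries was another. Fabp6 was at 1.16 (1.06 to 1.26) UMIs per 10000 in the control and at 0.376 (0.338 to 0.417) in the library labelled Taf4IEC, 3.08-fold lower (log2 -1.62, -1.82 to -1.42). Slc51b was at 2.08 (1.95 to 2.22) and 1.00 (0.940 to 1.07), 2.07-fold lower (log2 -1.05, -1.18 to -0.92). The carrier and the β subunit of the exporter were therefore both lower per enterocyte-like UMI where the sum over all cells had shown them equal or higher. Slc51a was 1.37-fold lower (log2 -0.46, -0.69 to -0.23), from 0.584 to 0.425 UMIs per 10000, and Nr1h4 1.31-fold lower (log2 -0.39, -0.65 to -0.12), from 0.437 to 0.334. Slc10a2, at 0.765 (0.686 to 0.851) and 0.854 (0.796 to 0.915), did not differ beyond counting error (log2 0.16, -0.03 to 0.35). Of the 5 members, 0 were at least 2-fold higher and 2 at least 2-fold lower, where 5.33% and 2% of 8634 genes were. Their median log2 ratio was -0.46 beside 0.11 for all genes. With clusters named at 2 times the mean marker level in place of 1.5, Fabp6 was at -0.73 and Slc51b at -0.51, short of 2-fold, Slc51a at 0.36 (0.13 to 0.60) and Slc10a2 at 0.80 (0.60 to 0.99). The Slc10a2 interval also lay above 0 at resolution 0.5 (log2 0.21), at resolution 1.4 (0.48), in a joint clustering (0.21), with bile acid genes kept in the clustering (0.21) and in the Apoa1-highest clusters alone (0.78), so whether it was higher beyond counting error turned on which cells were counted.

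The sums can be taken apart by arithmetic. Had enterocyte-like cells of the control held the share of UMIs they held in the library labelled Taf4IEC, with every level kept, the sums over all cells would have been 3.15 times higher for Fabp6, 3.15 for Slc10a2, 3.32 for Slc51a, 3.09 for Slc51b and 1.61 for Nr1h4. The measured ratios were 1.04, 3.73, 2.45, 1.49 and 1.29. With clusters named as here, Slc10a2 was the one of these 5 whose measured ratio exceeded the ratio given by the share of cells. That share turns on the naming. Clusters named at 2 times the mean marker level left 230 of 2563 cells enterocyte-like in the control and 167 of 1811 in the library labelled Taf4IEC. These held 4416784 of 39947009 and 4524707 of 24990128 UMIs, still a larger share in the library labelled Taf4IEC. The arithmetic was not repeated on those cells, so neither the size of the difference in share nor the place of Slc10a2 is settled by it. The share of cells itself comes from 1 library per group and a live sort, and its difference could not be tested.

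**Figure D2:**
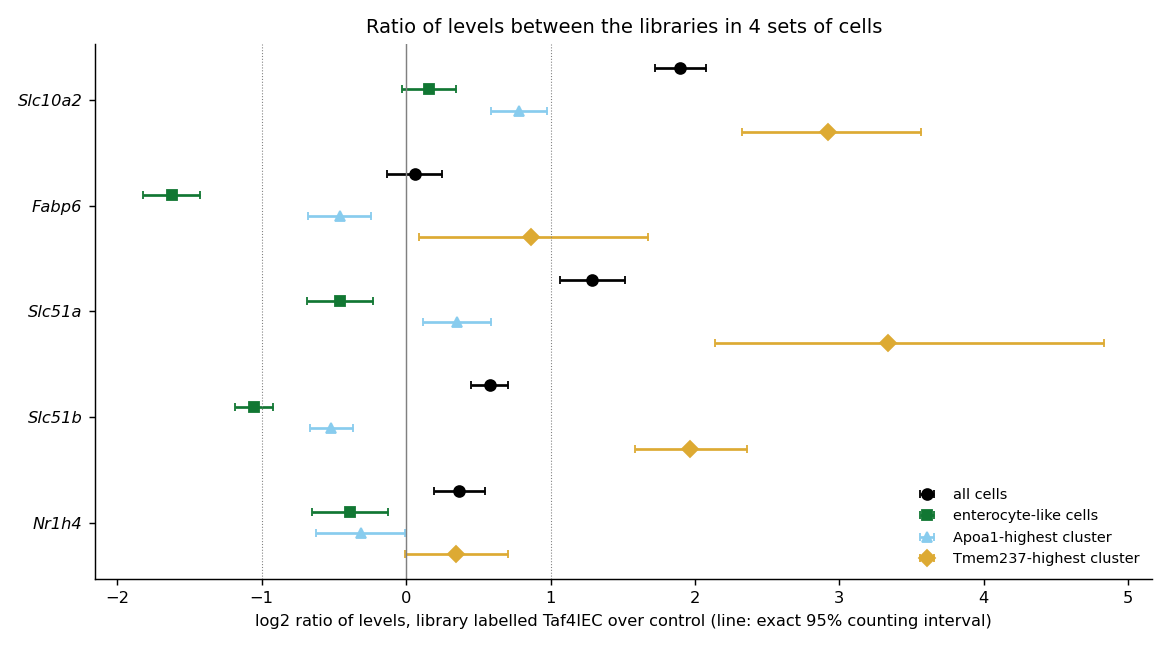
Log2 ratio of levels, library labelled Taf4IEC over control, of the 5 members with at least 50 UMIs in all cells, in enterocyte-like cells and in the clusters of each library with the highest Apoa1 and the highest Tmem237 level; lines are exact 95% counting intervals and dotted lines 2-fold. Slc10a2 is above 0 in all 4 sets, with an interval that reaches 0 in enterocyte-like cells. Fabp6, Slc51a, Slc51b and Nr1h4 each lie on both sides of 0.

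The enterocyte-like class was not made of the same clusters in both libraries. In the control it joined a cluster of 209 cells and 21 shallow cells (median 2423 UMIs) that clustered apart. The 209 cells were led by Apoc3, Fabp1 and Apoa1, with 12 of 13 markers at 10 or more UMIs and 1.5 times the mean level. The 21 cells were led by Fabp6, Reg3a and Reg3b. In the library labelled Taf4IEC the class joined a cluster of 167 cells and a cluster of 204 cells. The 167 cells were led by Fabp1, Cyp2c29 and Apoc3 and reached that cut in 13 markers. The 204 cells were led by Tmem237, S100g and Lgals3 and reached it in 3. The control's own Tmem237-highest cluster, 267 cells, stayed unnamed for want of markers. The clusters were therefore also compared in pairs, a pairing chosen after the values had been seen.

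Between the Apoa1-highest clusters, Slc10a2 was 1.72-fold higher in the library labelled Taf4IEC (0.774 and 1.33 UMIs per 10000, log2 0.78, 0.59 to 0.98). Slc51a was 1.28-fold higher (log2 0.35, 0.11 to 0.59), the opposite side from the class as a whole. Fabp6 was 1.38-fold lower (0.958 and 0.696, log2 -0.46, -0.68 to -0.25) and Slc51b 1.43-fold lower (2.09 and 1.46, log2 -0.52, -0.66 to -0.37). So both stayed lower, though neither by 2-fold, and the subunits of the export transporter lay on opposite sides of 0. Slc51b was detected in 90.4% of the 209 control cells and 68.9% of the 167 cells of the other library, although the latter were deeper (median 21822 and 32995 UMIs). Its UMIs per cell ran from 0 to 19 with a median of 3 in the control, and from 0 to 18 with a median of 2 in the library labelled Taf4IEC. Apoa1 itself was 1.83-fold higher between these clusters.

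Between the Tmem237-highest clusters every one of the 5 was at the higher level in the library labelled Taf4IEC, but their levels were low in the control. Slc10a2 had 26 UMIs in 267 control cells and 211 in 204 cells, 7.56-fold higher (log2 2.92, 2.33 to 3.57). Slc51a had 6 and 65 UMIs, 10.1-fold higher (log2 3.34, 2.14 to 4.83). Slc51b was 3.90-fold higher (log2 1.96, 1.58 to 2.36), Fabp6 1.82-fold higher (22 and 43 UMIs, log2 0.87, 0.09 to 1.68), and Nr1h4 had an interval that reached 0 (log2 0.34, -0.01 to 0.70). Apoa1 was 10.3-fold higher there too, while Fabp1 was 1.16-fold lower. Part of the class difference thus moves with which cells are counted as enterocyte-like, and that part was not tested.

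Fabp6 stood apart from the other members in how few cells held it. In the control 573 UMIs lay in 90 cells, 132 of them in 1 cell and 62 in the next, so that 6 cells held at least 50% of them. In the library labelled Taf4IEC 374 UMIs lay in 52 cells, with 125 and 95 in the first 2, which together held over 50%. No other member with at least 50 UMIs was so concentrated: 26 and 22 cells held 50% of the Slc10a2 UMIs, 28 and 26 of Slc51a, 56 and 46 of Slc51b, and 145 and 78 of Nr1h4. Without the top cell of each library the Fabp6 ratio was -0.15 (-0.38 to 0.08) in all cells and -1.81 (-2.05 to -1.57) in enterocyte-like cells.

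**Figure D3:**
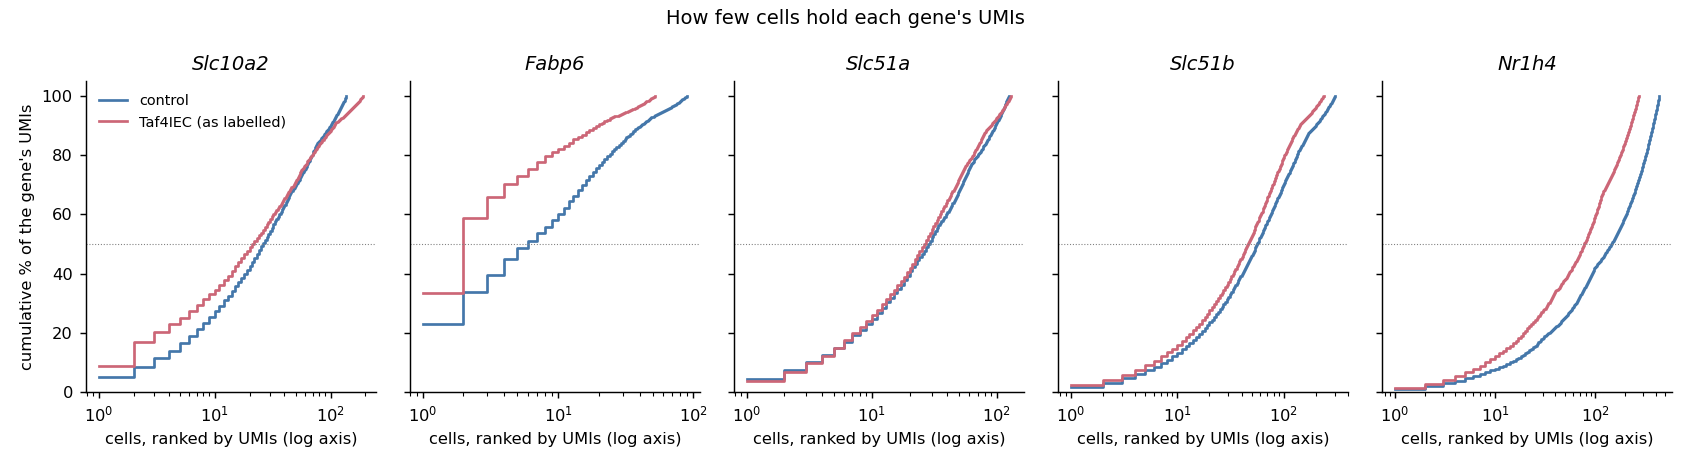
Cumulative percent of the UMIs of each gene (y axis) against cells ranked by their UMIs (log x axis), control in blue and the library labelled Taf4IEC in red, dotted line at 50%. The Fabp6 curves reach 50% at 6 and 2 cells, those of Nr1h4 at 145 and 78.

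The 21-cell cluster of the control held the highest Fabp6 level of any cluster, 17.9 UMIs per 10000 (14.5 to 22.0). Its 93 UMIs lay in 18 of 21 cells, from 0 to 12 per cell with a median of 4. It held 0 Slc10a2 UMIs, with an interval of 0 to 0.712 per 10000. That overlaps the 0.774 (0.694 to 0.861) of the 209-cell cluster beside it, so the levels did not differ beyond counting error. Fabp6 was not used in making this cluster, but no cluster of the library labelled Taf4IEC was led by Fabp6. Leaving it out moved the enterocyte-like ratio of Fabp6 to -1.35 (-1.56 to -1.14).

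Cells rich in the carrier were set beside cells rich in the uptake transporter. Of the enterocyte-like cells, 23 in the control and 9 in the library labelled Taf4IEC had 5 or more Fabp6 UMIs, 25 and 53 had 5 or more Slc10a2 UMIs, and 4 and 1 had both. A cut on raw counts also depends on depth. The Fabp6-rich cells had medians of 19365 and 44454 UMIs per cell. In the library labelled Taf4IEC the 53 Slc10a2-rich cells had a median of 44510 and the other 318 of 17603.5. Any Slc10a2 UMI was found in 8 of the 23 Fabp6-rich control cells (34.8%), beside 44.8% of all enterocyte-like control cells, and in 6 of the 9 (66.7%), beside 42.9%, in the library labelled Taf4IEC. The libraries thus lay on opposite sides at these low counts, and no separation of the cells was read from them. In the library labelled Taf4IEC, the 53 Slc10a2-rich cells held 0.0767 Fabp6 UMIs per 10000 and the other 318 held 0.474. In the control the Slc10a2-rich cells held 3.20 and the others 0.824, the opposite order. The single cell of 132 Fabp6 UMIs was among these Slc10a2-rich cells, which held 198 in all, so the 3.20 rests largely on 1 cell. These cells were divided by the measured counts, so the values describe them and nothing was tested.

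Read against enterocyte markers without clusters, Slc51b gave the steadiest picture. Cells of at least 2000 UMIs were put into ranges by the summed UMIs of the 13 enterocyte markers per 10000 of the cell. Slc51b was lower in the library labelled Taf4IEC at 30 to 100 (1.08 and 0.582 UMIs per 10000, log2 -0.90), at 100 to 300 (2.09 and 1.29, log2 -0.70) and at 300 and over (2.86 and 1.59, log2 -0.85), with intervals below 0 in all 3. Nr1h4 did not differ beyond counting error in any of the 5 ranges. Slc51a was lower at 300 and over alone (log2 -0.61, -1.10 to -0.12).

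Slc10a2 and Fabp6 depended on the range. Slc10a2 was higher in the library labelled Taf4IEC among cells with few markers, at 0.00545 and 0.0595 UMIs per 10000 under 10 (log2 3.45, 2.64 to 4.34) and at 0.0509 and 0.213 from 10 to 30 (log2 2.07, 1.44 to 2.74). It was also higher at 100 to 300 (log2 0.70, 0.44 to 0.96) and lower at 300 and over (1.85 and 1.27, log2 -0.54, -0.92 to -0.17). Fabp6 was lower at 10 to 30 (48 and 13 UMIs, log2 -1.88, -2.89 to -0.98), at 100 to 300 (1.59 and 0.435 UMIs per 10000, log2 -1.87) and at 300 and over (0.846 and 0.168, log2 -2.33), and higher at 30 to 100 (0.209 and 0.472, log2 1.18). Single cells weighed on all 4 of these values. In the control 1 cell held 20 of 48 UMIs at 10 to 30, 132 of 398 at 100 to 300 and 33 of 47 at 300 and over, and in the library labelled Taf4IEC 1 cell held 125 of 163 at 30 to 100 and 95 of 164 at 100 to 300. The ranges cut a continuous score: 134 control and 64 other cells lay within 10% of the lowest cut, and at most 26 and 23 of each further cut.

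**Figure D4:**
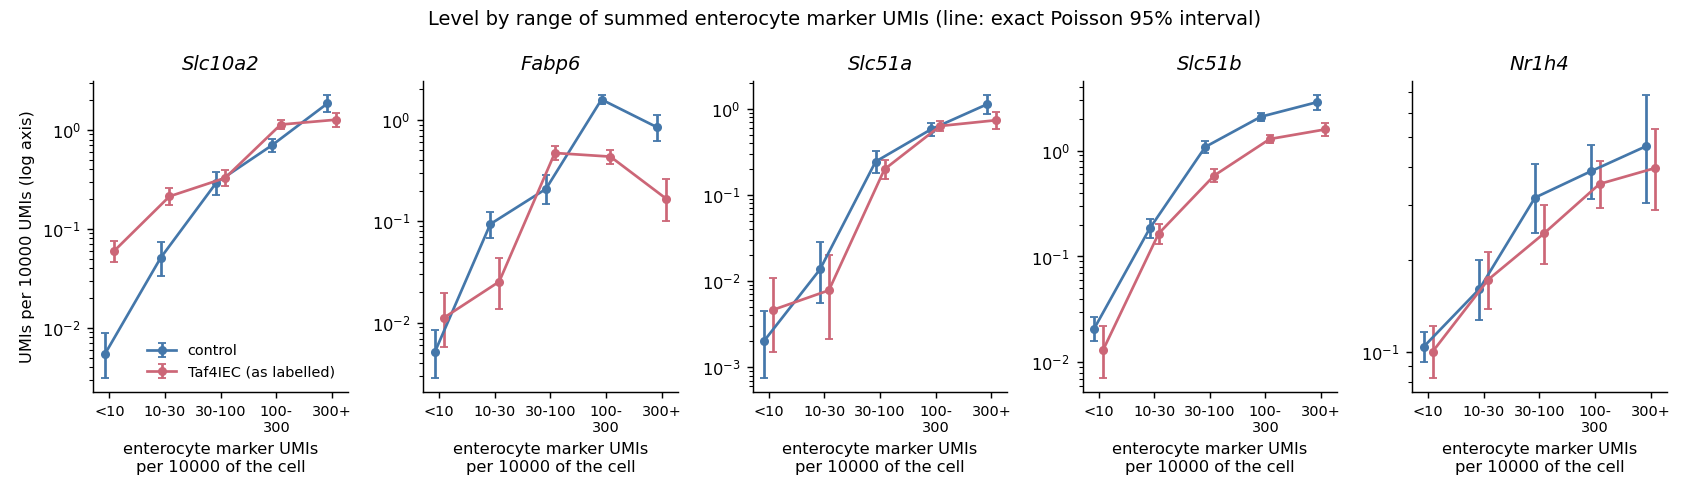
Level of 5 members (UMIs per 10000 UMIs, log axis, exact Poisson 95% intervals) in cells of at least 2000 UMIs by range of summed enterocyte marker UMIs, control in blue and the library labelled Taf4IEC in red. Slc51b of the library labelled Taf4IEC lies below the control from 30 upwards, and Slc10a2 lies above it under 30.

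Slc10a2, Slc51b and Fgf15 had levels in stem-like cells that differed between the libraries beyond counting error. Slc10a2 had 5 UMIs in 5 of 1100 control cells and 49 UMIs in 16 of 442 cells of the library labelled Taf4IEC, 0.00219 and 0.0535 UMIs per 10000 (log2 4.61, 3.29 to 6.29). 19 of the 49 lay in 1 cell, and without the top cell of each library the ratio was 4.23 (2.72 to 6.19). 48 of the 49 UMIs lay in 1 cluster of 181 cells, led by Ccnd1, Olfm4 and Lgr5, whose median of 34701 UMIs per cell was above that of the control's stem-like cells (20870.5). Per 100 Apoa1 UMIs, Slc10a2 had 5.63 in enterocyte-like and 59.8 in stem-like cells of that library, against 4.84 and 3.07 in the control. The 3 cells richest in it held 19, 8 and 5 Slc10a2 UMIs with 0, 1 and 0 Apoa1 UMIs. The part of free RNA and of depth in this level was not tested. Slc51b went the other way in stem-like cells, with 50 UMIs in the control and 7 in the other library (log2 -1.52, -2.91 to -0.37).

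Nr1h4 was detected in every named class, in 15.8% of stem-like, 47.8% of enterocyte-like, 19.4% of Paneth/goblet-like and 2.43% of enteroendocrine-like control cells, at median depths from 9761 to 20956 UMIs. Outside enterocyte-like cells no class differed between libraries beyond counting error. Levels were 0.0882 and 0.0961 UMIs per 10000 in stem-like cells (log2 0.12, -0.25 to 0.49) and 0.127 and 0.125 in Paneth/goblet-like cells (log2 -0.03, -0.69 to 0.64). The intervals were wide in enteroendocrine-like cells (6 and 11 UMIs, log2 0.81, -0.75 to 2.53) and in unnamed cells (log2 -0.09, -1.18 to 0.83). The order of its classes in the control was enterocyte-like, unnamed, Paneth/goblet-like, stem-like and enteroendocrine-like, where the intervals of unnamed and Paneth/goblet-like cells (0.162 to 0.227 and 0.0911 to 0.174) and of Paneth/goblet-like and stem-like cells overlapped.

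The receptor's known targets of low count were Nr0b2 and Fgf15. Nr0b2 had 1 UMI in the control and 13 UMIs in 8 cells of the library labelled Taf4IEC, 6 of them in 1 cell (log2 4.38, 1.64 to 9.79). Of these 13, 11 lay in enterocyte-like cells, where the control had 0, so that the level there was at least 1.70-fold higher against the floor of 3 counts over the control's enterocyte-like cells. Without its richest cell 5 UMIs were left there, which give no bound above 1. Fgf15 had 16 UMIs in 16 control cells and 15 UMIs in 4 cells (log2 0.58, -0.54 to 1.69). All 4 of these were stem-like and 1 held 10 of the 15 UMIs, beside 11 UMIs in stem-like control cells (log2 1.76, 0.54 to 3.03, and 0.32, -1.58 to 2.00, without the top cell of each library). In enterocyte-like cells, Fgf15 had 2 UMIs in 230 control cells and 0 in 371 cells of the library labelled Taf4IEC (interval 0 to 0.00387 UMIs per 10000). Without its top cell in each library, Fgf15 went from 15 to 5 UMIs (log2 -0.91, -2.72 to 0.63), so its direction rests on 1 cell.

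To compare the share of positive cells at equal depth, each cell was thinned to 2000 UMIs and the shallower cells were left out, 18 of 230 enterocyte-like cells in the control and 66 of 371 in the other library. Fabp6 was then seen in 12.7% (8.56 to 18.0) of control and 3.93% (2.05 to 6.77) of the other enterocyte-like cells, against 25.7% and 9.97% before thinning. Slc51b was seen in 31.6% (25.4 to 38.3) and 16.1% (12.1 to 20.7), against 84.8% and 55.5% before. Slc10a2 was seen in 14.2% and 13.8% and Nr1h4 in 5.66% and 6.23%, with overlapping intervals. In all cells outside the enterocyte-like class, the thinned share of Fabp6 was 0.420% of 1907 control cells. It was 0 of 616 cells of the library labelled Taf4IEC, with an interval of 0 to 0.597%. The shares of Slc51b in these cells were 0.787% and 0.487%. The part of free RNA in these shares was not tested.

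The genes with the most similar pattern over the 26 clusters (13 per library, which share their libraries and depth) differed between the members. By Pearson's r of log2(UMIs per 10000 + 0.1), out of 10001 genes of at least 200 UMIs, Fabp6 was nearest to Slc5a4b (0.97), Gm10639, Dao, Ppfia3 and Rdh7 (0.91). Slc10a2 was nearest to Npl (0.96), Mep1b, Alpi, Slc22a4 and Gda (0.93). The brush border enzymes Alpi and Mep1b, an alkaline phosphatase and a metalloprotease subunit, stood among these. Slc51a was nearest to Slc13a2 (0.98), Nat8, Neu3, Nat8f5 and Slc2a2 (0.96), Slc51b to Tm6sf2 (0.98), Enpep, Gstm3, Gsta2 and Khk (0.96), and Nr1h4 to Abcg8 (0.87), Hpgd, Ckmt1 and Marc2 (0.86). Between members, r was 0.92 for Slc51a with Slc51b, 0.81 for Slc10a2 with Slc51a and 0.33 for Slc10a2 with Fabp6. With the other members Fabp6 had r of 0.79 (Slc51b), 0.72 (Slc51a) and 0.50 (Nr1h4). Every cluster weighed the same, also the shallow 21-cell control cluster, where Fabp6 was highest and Slc10a2 had 0 UMIs.

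Other genes of the pathway were given from lists chosen by role. Of all genes, 8.31% were at least 2-fold higher and 4.38% lower over all cells, and 5.33% and 2% in enterocyte-like cells. Enterocyte-like cells held 11.1% of the control's UMIs and 38.1% of those of the library labelled Taf4IEC. Sums over all cells do not separate that share from the level per cell. Of 11 receptors and partners, 10 had at least 50 UMIs over all cells, and 1 was at least 2-fold higher: Nr1i3, the xenobiotic receptor CAR (0.0774 and 0.217 UMIs per 10000, log2 1.49, 1.28 to 1.69). The FXR partner Rxra was at 0.49 over all cells and at -0.46 (-0.78 to -0.13) in enterocyte-like cells, and Vdr, a receptor that also binds a bile acid, at 0.03 and 0.57 (0.34 to 0.81). The median log2 ratio of this list was 0.29 over all cells and 0.27 in enterocyte-like cells.

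Of 6 further transporters at that count, 3 (beside 8.31% of all genes) were at least 2-fold higher over all cells. They were Abcc2 (log2 1.03) and Abcb1a (1.30), apical efflux pumps, and Abcb1b (9 and 107 UMIs, 4.25, 3.27 to 5.42). Only 1 and 4 of these Abcb1b UMIs lay in enterocyte-like cells, too few to count there. In enterocyte-like cells 0 of 4 were past 2-fold, with Abcb1a at 0.91 (0.80 to 1.03), Abcc2 at 0.01 and Abcc3, a basolateral exporter, at -0.50 (-0.71 to -0.29). The medians were 0.98 and -0.08.

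Of 6 enzymes that modify bile acids and related molecules, 5 (beside 8.31% of all genes) were at least 2-fold higher over all cells. They were Cyp3a11 (log2 2.27), Cyp3a13 (1.69), Cyp3a25 (1.95), Ugt2b34 (1.09) and Ephx1 (1.30). In enterocyte-like cells 0 of the 6 were past 2-fold, with Cyp3a11 at 0.51 (0.45 to 0.58) and Ephx1 at -0.02 (-0.13 to 0.10), and the list medians were 1.49 and 0.13. The synthesis enzyme Cyp27a1 had 15 and 0 UMIs.

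Of 12 regulators, all above the count, 1 was at least 2-fold higher over all cells: Maf (0.114 and 0.459 UMIs per 10000, log2 2.00, 1.85 to 2.16), which was also higher in enterocyte-like cells (1.07, 0.70 to 1.46). Creb3l3, a liver and enterocyte factor of lipid metabolism, was at 0.28 over all cells and at least 2-fold lower in enterocyte-like cells (1.15 and 0.405, log2 -1.51, -1.70 to -1.31). Hnf4a, a main activator of enterocyte genes, was at 0.45 and 0.27, and Cdx2 at 0.16 and 0.67. The medians of the regulators were 0.24 and 0.27.

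**Figure D5:**
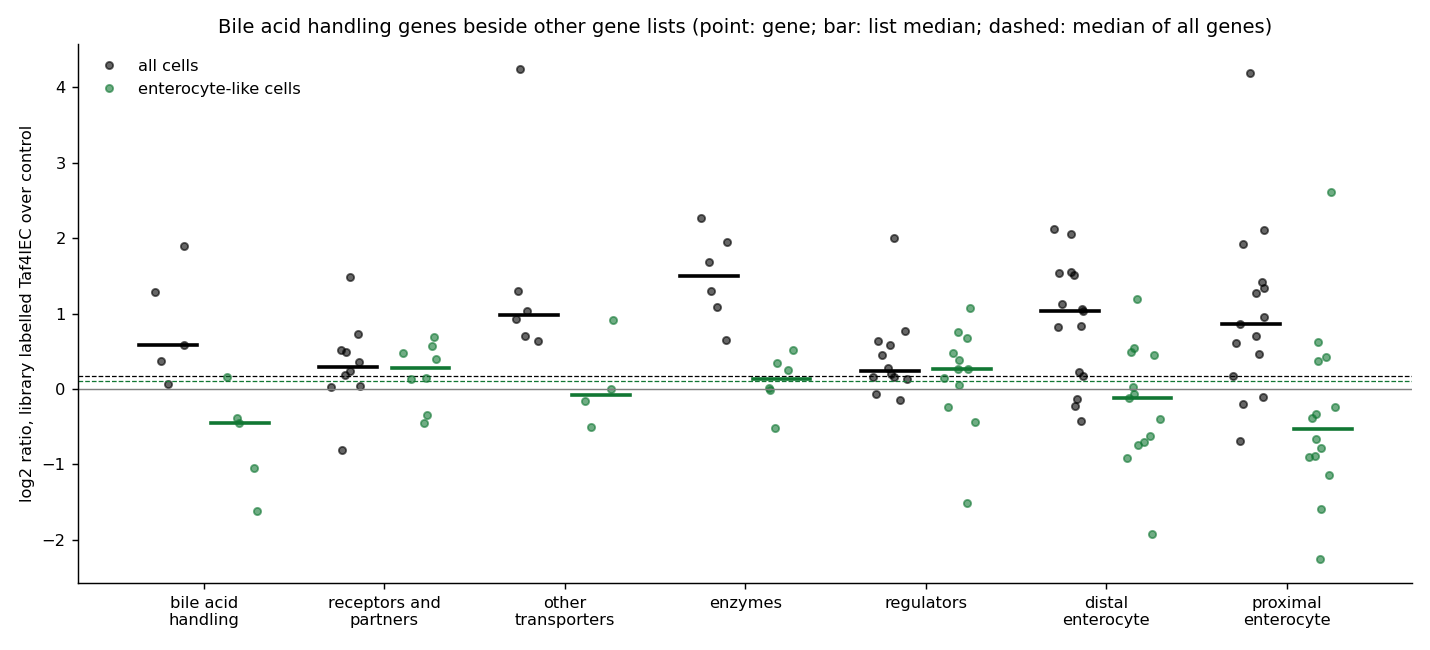
Log2 ratio of levels, library labelled Taf4IEC over control, for each gene with at least 50 UMIs in the bile acid handling genes and 6 further lists, over all cells in black and in enterocyte-like cells in green; bars are list medians and dashed lines the medians of all genes (0.17 and 0.11). The bile acid handling genes have medians of 0.58 and -0.46, and the enzymes of 1.49 and 0.13.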

How the data were processed

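The authors demultiplexed with bcl2fastq 2.17.1.14 and counted UMIs per gene and cell against mm10 with Cell Ranger 3.1, per the submitters' processing notes, which also name Seurat 3.1.4. The deposited count tables, 1 per library, hold whole-number raw counts of filtered cells, with at least 269 genes per cell and at most 15.0% mitochondrial counts in these files. The counts were used as deposited. The 7 members and all gene lists were chosen with earlier results of these data known, and the rule that named clusters was taken from earlier work on them.

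Each library was clustered alone in Seurat 5.3.0 (R 4.3.3; LogNormalize, 2000 variable genes less the members and pathway lists, UMI count and mitochondrial percent regressed out, 20 principal components, resolution 0.9). A cluster took the class with the most markers at 10 or more UMIs and 1.5 times the mean level of both libraries, with at least 3, unless its 10 leading genes favoured another class or low quality. Scrublet (scanpy 1.11.5) called 10 control doublets (0.390%) and 0 others, too few to show that it had worked, and all cells were kept.

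Levels are sums over cells scaled to 10000 UMIs of all genes, with exact Poisson intervals, shares with exact Clopper-Pearson intervals, and ratios with exact conditional binomial intervals (SciPy 1.17.1). A floor of 3 counts stood for 0. The intervals were checked on gene sums drawn from the Poisson model that they assume. That simulation held no clumping of UMIs in single cells, so it cannot show coverage beyond counting error. Named genes were all members, genes of the pathway and of the distal and proximal enterocyte lists with at least 50 UMIs and a 2-fold difference, and the 5 genes nearest to each member of at least 200 UMIs, of which 1 is not reported here; further pathway genes were named after their values were seen. Alternatives were another total, cells of at least 2000 UMIs, thinning, removal of doublets, and other clusterings and namings.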

Additional observations from a re-analysis of the deposited data

Results flagged for a closer look

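Fabp6 and Slc51b lay on opposite sides of 0, beyond their counting intervals, in the clusters compared as pairs. Fabp6 was at -0.46 on the log2 scale in the Apoa1-highest clusters and at 0.87 in the Tmem237-highest clusters. Slc51b was at -0.52 and 1.96 in the same pairs. Slc51a was at -0.46 in enterocyte-like cells and at 2.71 in cells of unnamed clusters, where it rests on 6 and 3 UMIs. These differences between sets of cells were not tested, since each group is 1 library.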

How the results depend on the processing

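No paired analysis was possible because each group is 1 library, and for the same reason no library could be left out. Of 102 values under an alternative, 74 stayed within their counting interval, 25 lay outside it and 3 turned in direction. Over all cells, a total without mitochondrial and ribosomal protein genes, Gm42418 and AY036118 gave log2 ratios of 1.72 for Slc10a2, 0.40 for Slc51b and 0.19 for Nr1h4, and put 50.5% of the 2-fold calls over all genes on the higher side (697 and 683) in place of 65.5% (992 and 523). Thinning to 2000 UMIs gave -0.74 for Fabp6, 1.64 for Slc10a2 and 0.42 for Slc51b. Leaving out the top cell of each library, chosen after seeing the data, gave -0.15 for Fabp6 and -0.91 for Fgf15.

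In enterocyte-like cells, thinning gave -2.31 for Fabp6 and turned Nr1h4 to 0.10. Resolution 1.4 gave -1.28 for Fabp6, 0.48 for Slc10a2, -0.091 for Slc51a and -0.74 for Slc51b. Naming at 2 times the mean level, which leaves out the Tmem237-led cluster, gave -0.73 for Fabp6, 0.80 for Slc10a2 and -0.51 for Slc51b and turned Slc51a to 0.36. Clustering both libraries together gave -1.37 for Fabp6 and -0.80 for Slc51b. The Apoa1-highest clusters alone, chosen after seeing the data, gave -0.46 for Fabp6, 0.78 for Slc10a2 and -0.52 for Slc51b and turned Slc51a to 0.35. Leaving out the 21-cell control cluster, also chosen then, gave -1.35 for Fabp6. Fabp6 and Slc51b were below 0 in all 12 alternatives in enterocyte-like cells (-2.31 to -0.46 and -1.13 to -0.51). These alternatives reuse the same libraries and are not independent. Removal of doublets took out no enterocyte-like cell (230 and 371 stayed), so it could not move these values. The share of Fabp6 UMIs in enterocyte-like cells was 92.1% at resolution 1.4 and 85.7% in the joint clustering for the control, and 84.2% with naming at 2 times the mean for the library labelled Taf4IEC. Beyond the cells each setting left out, the cause was not tested. Depth limits Fgf15 and Nr0b2 most, at 16 UMIs or fewer per library.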

Other observations

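Genes of distal and of proximal enterocytes were read beside the bile acid handling genes, which mark the distal end. Of 16 distal genes, 15 had at least 50 UMIs over all cells and 8 were at least 2-fold higher in the library labelled Taf4IEC: Clec2h (log2 2.12), Tmigd1 (2.06), Muc3 (1.54), Enpep (1.54), Naaladl1 (1.51), Slc7a9 (1.12), Xpnpep2 (1.06) and Fam151a (1.03). Of 16 proximal genes, 15 passed and 6 were at least 2-fold higher: Adh6a (4.18), Gsta1 (2.11), Ms4a10 (1.92), Slc2a2 (1.41), Gstm3 (1.34) and Cybrd1 (1.27). The medians were 1.03 and 0.86 beside 0.17 for all genes. Of all genes over all cells, 8.31% were at least 2-fold higher and 4.38% at least 2-fold lower.

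In enterocyte-like cells, the medians were -0.13 and -0.53 beside 0.11 for all genes. There, 5.33% of all genes were at least 2-fold higher and 2% at least 2-fold lower. Of 13 distal genes, Mep1a, a brush border metalloprotease subunit, was at least 2-fold higher (1.20, 0.41 to 2.07) and Cubn, the receptor that takes up the vitamin B12 complex in the ileum, at least 2-fold lower (0.541 and 0.143 UMIs per 10000, -1.92, -2.24 to -1.61). Its partner Amn was at -0.62 (-0.81 to -0.42). Of 14 proximal genes, Adh6a was higher (11 and 145 UMIs, 2.61), and the apolipoproteins Apoa4 (-2.25) and Apoc3 (-1.15) and the lactase gene Lct (-1.59) were lower. Unlike the bile acid handling genes, both lists stayed among the genes used for clustering, and Apoa4 and Rbp2 are also enterocyte markers.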
